A study of Saccharomyces cerevisiae with 38 samples.

Results

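The genes for the proteins of the cytosolic ribosome of budding yeast (Saccharomyces cerevisiae) were followed through 14 strain groups. They were taken by name from the probe annotation, as every gene called RPL or RPS with a number and an optional A or B, together with the stalk genes RPP0, RPP1A, RPP1B, RPP2A and RPP2B. This gave 134 of the 5548 named genes on the arrays, of which 79 encode proteins of the large subunit (RPL and RPP) and 55 of the small subunit (RPS). RPL22B had 2 spots, which were averaged and lay a median of 0.17 apart on the log2 scale. The RefSeq gene table holds 137 such names, and those without a spot here were not analysed here. Names with A or B mark 2 copies of a gene, and both copies were measured for 57 pairs.

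The samples were 38 two-colour hybridisations, and each set polyA RNA of a test strain against RNA of wild type (WT) in the other dye. In the ts2 strain the TAF1 gene, for the largest subunit of the general transcription factor complex TFIID, carries a temperature-sensitive mutation. The other strains carry a mutation of a histone acetyltransferase gene (elp3, esa1, gcn5, hat1, hpa2 or sas3) without ts2, or the same mutation together with ts2 (elp3 ts2, esa1 ts2, gcn5 ts2, hat1 ts2, hpa2 ts2 and sas3 ts2). There were 6 arrays of ts2, 2 of each of the 12 strains with an acetyltransferase mutation, and 8 of WT against WT. All cultures, WT included, were grown in medium without histidine to an OD600 near 0.8 and kept at 37 °C for 45 minutes, so every comparison is between heat-treated cells. The labels name a strain number for each group and do not say whether the acetyltransferase mutations are deletions, or whether a group's arrays stem from separate cultures. The p-values therefore rest on differences among arrays, which may be no more than technical. For 1 array titled hpa2 ts2 (array A) the strain number is that of elp3, and it was kept under its title.

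Values are log2 ratios of the test strain to WT, less the median of all named genes on the same array, so that 0 is the level of the median gene. The median deposited ratio of an array lay between 0.326 and 2.398, and no change below is one of absolute RNA amount. Between 0.75 and 4.22% of the deposited values on an array were at or below 0 and have no logarithm. The number of arrays limits the precision. GCN5 lay at -3.41 to -2.22 on the 4 arrays of its mutants and at -0.42 to 0.54 on the other 34, and HAT1 at -3.85 to -2.7 and at -0.98 to 0.98, so both matched the labels. The other target genes gave no such check. ELP3 was at -0.62 to 0.09 on the arrays of its mutants and -0.86 to 0.3 on the others, HPA2 at -1.07 to 1.48 and -1.75 to 2.47, SAS3 at -2.82 to -0.37 and -2.15 to 0.69, and ESA1 was higher on its own, at 0.66 to 1.08 and -1.6 to 0.79. The labels do not say which of these mutations should lower the transcript. Arrays came in 4 runs of slides, and run 1 held elp3 ts2 and hpa2 ts2 but no ts2 array.

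A ribosome is built from RNA and about equal copies of each ribosomal protein, and in growing yeast the genes for these proteins are among the most heavily transcribed by RNA polymerase II. Their promoters are bound by Rap1, Fhl1 and Ifh1 and are known to draw on TFIID, and both the NuA4 acetyltransferase Esa1 and the SAGA acetyltransferase Gcn5 have been found at them. Most of these genes exist as a pair of paralogs left by an ancient duplication of the genome, and their messages are known to drop together under heat and other stress. The paralogs often differ little in coding sequence, and spots made from genomic PCR products can capture RNA of both, so a difference between 2 paralogs may be understated and the share that each adds to a spot was not measured.

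The ts2 allele lowered nearly the whole set. Against WT, 127 of 134 genes fell and 1 rose (limma, Benjamini-Hochberg adjusted p below 0.05), while 33.2% of all tested genes were called lower and 32% higher. The median change was -1.01, with the middle 50% of the genes between -1.28 and -0.7, and the median of all genes was 0.01. Of the genes called, 69 fell at least 2-fold. All 6 ts2 arrays lay below all 8 WT arrays for 108 genes (80.6%), and 15.1% of all genes showed that separation. Of the 129 ribosomal protein genes with a value on every ts2 array, 117 were below 0 on all 6 (90.7%), as were 27.8% of all genes. The order of the genes was similar in the 2 dye orientations: over those 129 genes the mean of the 3 arrays with ts2 in Cy5 and the mean of the 3 with ts2 in Cy3 had a Pearson r of 0.86 (Spearman rho 0.87), as a description across genes that share spots and the WT reference.

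The genes did not fall by the same amount. RPL9A, whose protein lies near the base of the large subunit's stalk, had the lowest change, with ts2 arrays at -2.32 to -1.6 (median -1.92) and WT arrays at -0.45 to 0.5 (median -0.01). It fell by 1.95 on the log2 scale (SE 0.1, n = 6, adjusted p = 1.3e-15). RPS28A, of the small subunit, lay at -2.79 to -1.53 in ts2 (median -1.72) and at -0.35 to 0.53 in WT (median 0.07), and fell by 1.85 (SE 0.11, n = 6, adjusted p = 4.3e-14). For both genes no ts2 array reached the range of WT. RPL29 fell by 1.68 but had a large error (SE 0.24, adjusted p = 9e-07), and its ranges overlapped: -2.61 to -1.1 in ts2, and -1.97 to 0.98 in WT, where array H alone was below -0.09. RPS31, made as a fusion to ubiquitin, fell by 1.68 (SE 0.12). The 2 copies of RPS23, a protein near the decoding centre that bears on the accuracy of translation, fell by 1.67 (RPS23A, SE 0.11) and 1.68 (RPS23B, SE 0.11). RPS31 and both RPS23 genes had all 6 ts2 arrays at or below -1.14 and all 8 WT arrays at or above -0.57.

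The 5 stalk genes all fell in ts2. The stalk is the flexible arm of the large subunit that recruits translation factors to the ribosome, and RPP0 forms its base while the P1 and P2 proteins sit on it. RPP2B lay at -1.86 to -1.49 in ts2 and at -0.11 to 0.32 in WT, and fell by 1.62 (SE 0.09, adjusted p = 3.3e-15). RPP1A had ts2 arrays at -1.86 to -1.33 and WT arrays at -0.18 to 0.17. RPP1B fell by 1.17 (SE 0.07), RPP2A by 1.03 (SE 0.07) and RPP0 by 0.71 (SE 0.08), so the base protein had the smallest change of the 5. On array E, RPP0 was at -0.18 and on the other ts2 arrays between -0.93 and -0.7. The order in ts2 had RPP2B and RPP1A at the bottom and RPP0 at the top, with RPP1B and RPP2A between them. The difference between the stalk paralogs was itself called in both pairs: RPP1A minus RPP1B was -0.37 (SE 0.07, adjusted p = 1.7e-05) and RPP2A minus RPP2B was 0.59 (SE 0.06, adjusted p = 6.7e-10).

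RPS14B was the 1 ribosomal protein gene that rose in ts2, and within slide run 3 alone 3 were called higher. Its protein, like that of its paralog RPS14A, lies in the platform of the small subunit, and the RPS14 protein is known to bind the RPS14B transcript and limit its expression. RPS14B was at 0.77 to 1.56 on the ts2 arrays (median 1.16) and at -0.34 to 0.22 on the WT arrays (median -0.02), a change of 1.17 (SE 0.09, n = 6, adjusted p = 3.7e-12). RPS14A was at -0.53 to -0.06 in ts2 (median -0.32) and at -0.17 to 0.26 in WT (median -0.02), and fell by 0.29 (SE 0.07, adjusted p = 0.00063). The ts2 and WT arrays did not overlap for RPS14B and overlapped for RPS14A. On all 18 arrays carrying ts2, RPS14B lay between 0.3 and 2.06, and RPS14A between -0.77 and 0.24. RPS14A was not called in esa1 ts2 (0.06 and 0.24) or sas3 ts2 (-0.17 and -0.2) and fell in the other 4 double mutants, by 0.38 to 0.47.

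In the acetyltransferase mutants without ts2, RPS14B was called higher in esa1 (arrays at 1.1 and 1.04, change 1.07, SE 0.15, adjusted p = 5.7e-06) and in gcn5 (0.62 and 0.27, change 0.45, SE 0.15, adjusted p = 0.04). The gcn5 call was lost when WT was given its own coefficient (adjusted p = 0.065) and with slide runs fitted as a block (adjusted p = 0.15). With ts2 as well, the RPS14B change against WT was 1.92 in esa1 ts2 (arrays at 1.79 and 2.06), 1.32 in sas3 ts2 (1.45 and 1.19), 1.06 in gcn5 ts2 (1.31 and 0.81), 1.04 in hpa2 ts2 (1.09 and 0.99), 0.97 in elp3 ts2 (0.96 and 0.97) and 0.43 in hat1 ts2 (0.3 and 0.55). All 6 of these changes were called (SE 0.15 each, n = 2). Set against ts2 itself, RPS14B was higher in esa1 ts2 by 0.75 (SE 0.18, adjusted p = 0.0025) and fell in hat1 ts2 by 0.74 (SE 0.18, adjusted p = 0.014). It was the 1 ribosomal protein gene called lower in hat1 ts2 against ts2. That call was lost with slide runs fitted as a block, within slide run 4 alone and on the deposited scale. In the other 4 double mutants the RPS14B difference from ts2 was not called.

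**Figure D1:**
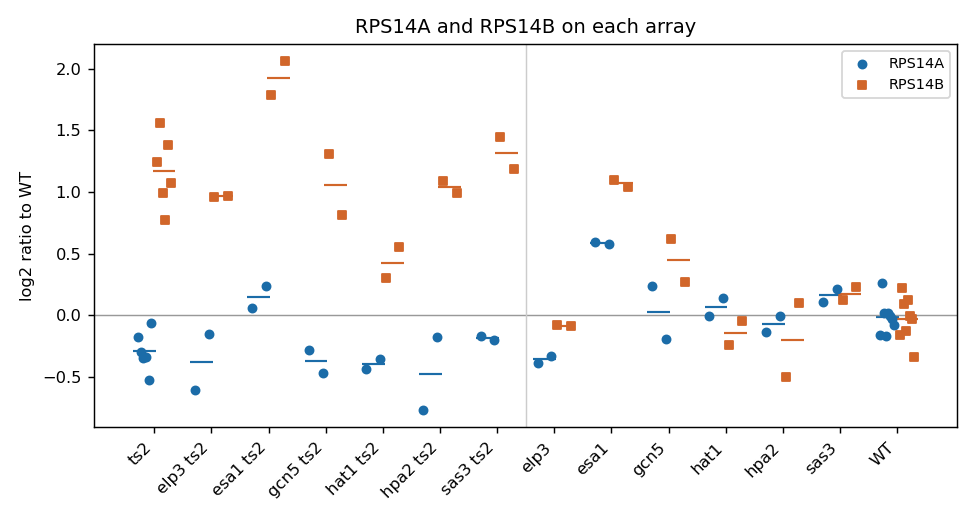
Log2 ratio to WT of RPS14A (circles, left in each group) and RPS14B (squares, right) on each of the 38 arrays, less the array median. Groups with ts2 stand left of the grey line, short lines are group means. RPS14B is above 0 on all 18 arrays with ts2 (0.3 to 2.06), where RPS14A lies between -0.77 and 0.24.

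Besides RPS14B, 6 genes were not called lower in ts2. They were RPL3, a single-copy protein that reaches towards the peptidyl transferase centre, RPL36A, RPL17B, RPL41B, RPS27B and RPS30A. RPL17B was at -1.14 to -0.5 on ts2 arrays A to E, below its WT range of -0.02 to 0.17. On array F it was at 1.85, and its change over all ts2 arrays was -0.38. RPL3 was at -0.37 to 1.02 in ts2 (median -0.1) and at -0.66 to 0.1 in WT (median -0.04), a change of 0.03 (SE 0.12, adjusted p = 0.82), and the value of 1.02 came from array E alone. RPS27B was at -1.1 to 0.44 in ts2 (median 0.21), against -0.13 to 0.28 in WT, with a change of -0.1 (SE 0.13, adjusted p = 0.53). RPL36A changed by -0.11 (SE 0.07, adjusted p = 0.22) and RPS30A by -0.18 (SE 0.09, adjusted p = 0.068). RPL41B, one of 2 genes for the smallest protein of the ribosome, had the widest errors: -1.13 to 1.36 in ts2, -1.96 to 0.37 in WT, and a change of -0.28 (SE 0.27, adjusted p = 0.38). Of other genes, 5 values could not enter the fit: RPL20A, RPL2A, RPL33B, RPL39 and RPS18A had deposited ratios below 0 on ts2 array F, so their changes rest on 5 ts2 arrays. RPL39 is an example, with -1.72 to -0.3 on those arrays, -0.45 to 0.6 in WT and a fall of 0.84 (SE 0.13, n = 5).

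**Figure D2:**
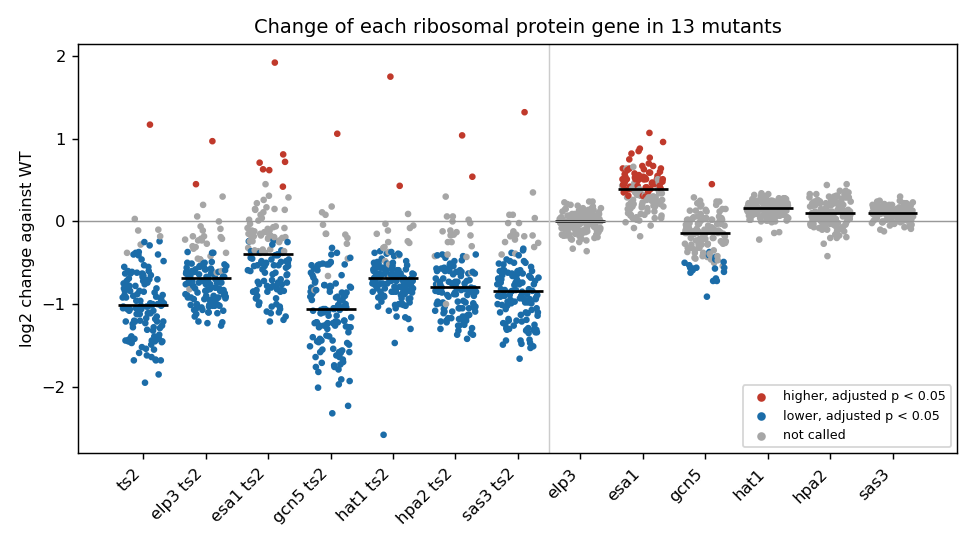
Log2 change against WT of each ribosomal protein gene (points, in alphabetical order within a column) in the 13 mutant groups, coloured by whether limma's adjusted p was below 0.05. Black lines are medians, from -1.07 in gcn5 ts2 to 0.39 in esa1, and the isolated high point of the ts2 columns is RPS14B, except in hat1 ts2, where RPL41B (1.75) lies above it.

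Large and small subunit genes were both lowered in ts2, 75 of 79 and 52 of 55, with 1 small subunit gene higher. Their median changes were -0.92 and -1.08. On single arrays the median of the large subunit genes was above that of the small subunit genes in all 18 hybridisations carrying ts2, by 0.06 to 0.21. On the 20 arrays without ts2 the same difference was between -0.09 and 0.04, and positive on 10. On the ts2 arrays it was 0.09 to 0.21, and on the WT arrays -0.09 to 0.03. Group means in the double mutants were 0.18 in gcn5 ts2, 0.15 in esa1 ts2, 0.14 in hpa2 ts2 and sas3 ts2, and 0.09 in elp3 ts2 and hat1 ts2. No test was made of this score over the chosen genes. It depended on how the genes were summarised: with means in place of medians it was -0.01 to 0.23 on arrays carrying ts2 and -0.06 to 0.05 on the others, so the ranges overlapped.

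**Figure D3:**
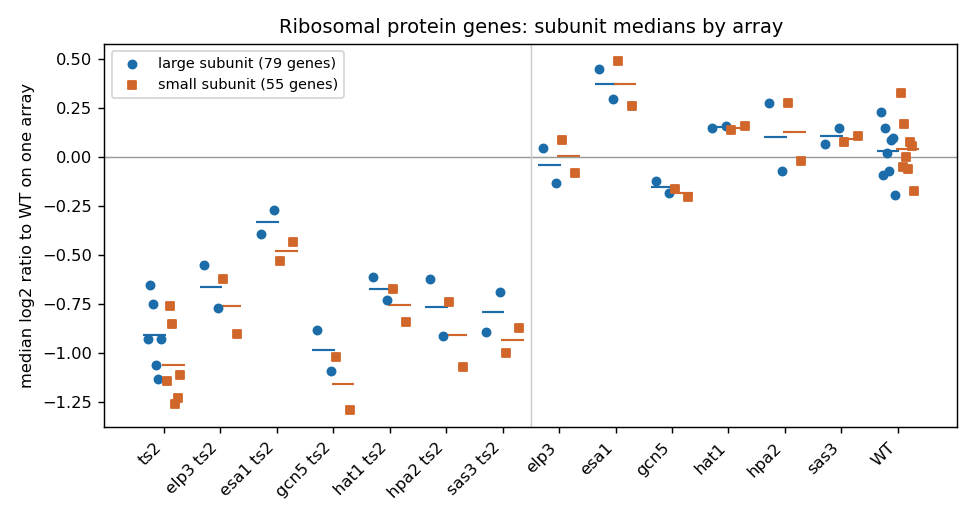
Median log2 ratio to WT of large subunit genes (circles, left in each group) and small subunit genes (squares, right) on each array, with group means as short lines. In the 7 groups with ts2, left of the grey line, every array has its small subunit median below its large subunit median, by 0.06 to 0.21.

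The A copies, the B copies and the genes with 1 copy in the name had close medians in ts2. The A copies of the 57 measured pairs had a median change of -1.02 (56 lower, none higher), the B copies -1.0 (53 lower, 1 higher) and the 18 genes with a single copy in the name -1.02 (17 lower, none higher). Within pairs, the difference A minus B was called for 33 of 57, with A below B in 21 and A above B in 12, a share of 57.9%, while 65.1% of all genes and pairs fitted together were called, so the count alone does not set the pairs apart. In slide run 4 alone 21 were called, and on the deposited scale, where array medians were not subtracted, 12. The 53 pairs complete on every ts2 array had the same sign in both dye orientations in 40 cases (Pearson r 0.73, Spearman rho 0.73 across pairs, as a description). A was below B on all 6 ts2 arrays in 12 pairs and above it on all 6 in 8.

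RPS14 had the largest difference, with A minus B at -1.91 to -1.11 on the ts2 arrays and -0.09 to 0.27 on the WT arrays, a change of -1.46 (SE 0.09, adjusted p = 5.8e-14). RPL43 had the largest in the other direction. RPL43A was at -0.79 to -0.09 in ts2 and RPL43B at -1.86 to -1.02, so that A minus B was 0.71 to 1.25 in ts2 and -0.3 to 0.49 in WT (change 1.06, SE 0.12, adjusted p = 6e-09). RPS30A minus RPS30B was 0.54 to 1.07 in ts2 and -0.17 to 0.28 in WT (change 0.75, SE 0.06, adjusted p = 3.7e-11). In these 3 pairs the ts2 and WT arrays did not overlap. RPL9A minus RPL9B was -1.04 to -0.42 in ts2 and -0.25 to 0.25 in WT (change -0.72, SE 0.07, adjusted p = 4.4e-10), although both copies fell, RPL9B by 1.23.

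In 2 other pairs the spread between ts2 arrays was wide. RPS29A minus RPS29B changed by -1.13 (SE 0.2, adjusted p = 1.8e-05), with array F at -3.38, array E at -1.58 and the other 4 ts2 arrays between -0.55 and -0.35. All 6 lay below the WT range of -0.16 to 0.49. RPL41A minus RPL41B ran from -2.12 to 0.71 in ts2 and from -0.56 to 2.09 in WT and was not called (adjusted p = 0.058, or 0.035 with the slide as a random block). At the other end, RPS19A minus RPS19B was not called ( -0.13 to 0.08 in ts2, -0.18 to 0.25 in WT), nor was RPS23A minus RPS23B (-0.48 to 0.27 in ts2, -0.25 to 0.23 in WT).

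**Figure D4:**
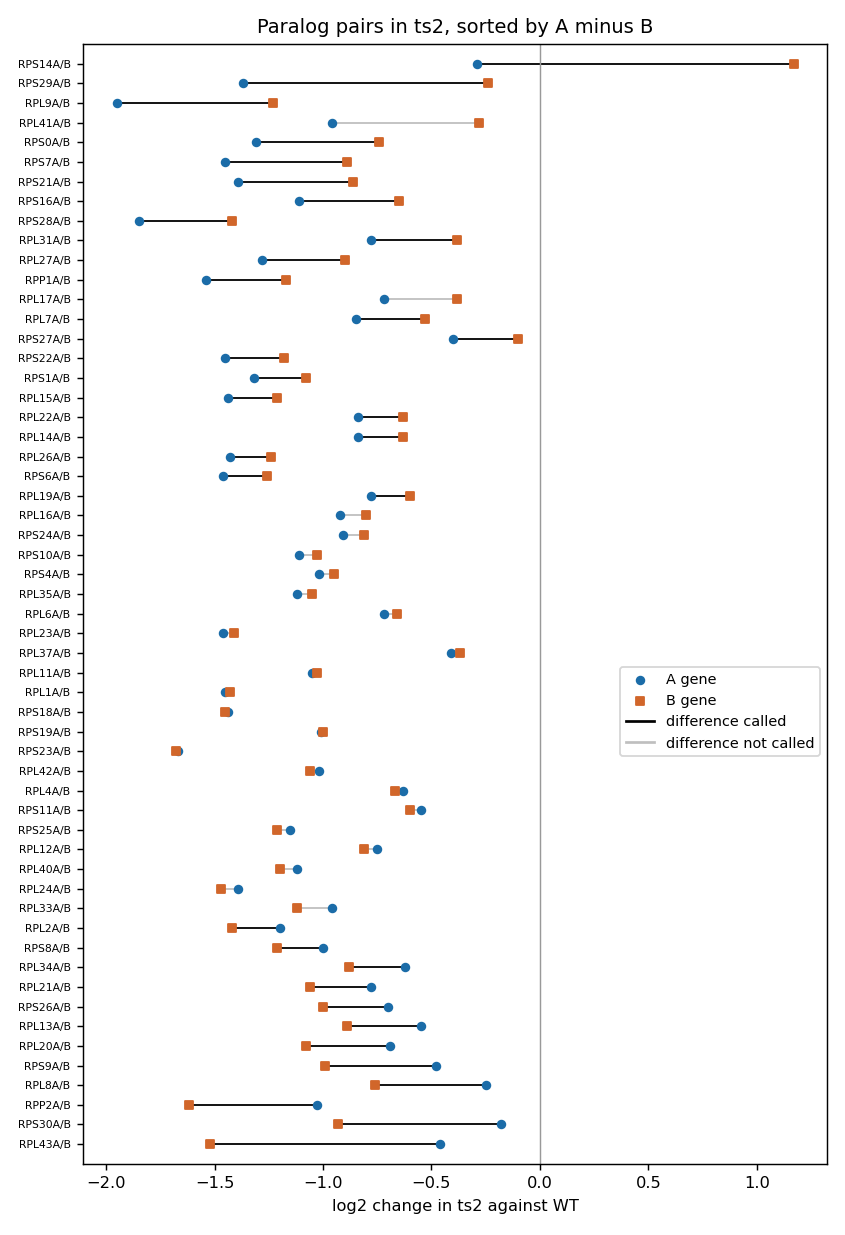
Log2 change in ts2 against WT of the A gene (circles) and B gene (squares) of 56 of the 57 measured pairs, sorted by A minus B. Black lines mark the 33 pairs whose difference was called. RPS14A/B at the top (-1.46) has the widest gap with A below B, and RPL43A/B at the bottom (1.06) the widest with A above B.

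The esa1 mutant moved the set upwards relative to the median gene. Esa1 is the acetyltransferase of NuA4 and is essential in yeast. Against WT 65 of 134 genes were higher and 0 lower, while 16.9% of all genes were called higher and 11.9% lower, and the median change was 0.39. The count of 0 lower held at an unadjusted p below 0.05, where 77 were higher. Both esa1 arrays were above all WT arrays for 52 genes (38.8%), and 19.8% of all genes. The 2 arrays had medians of 0.47 and 0.28, and WT array A also stood at 0.28. With slide runs fitted as a block 12 genes were called, and within slide run 3, which held esa1, 64 were. Without esa1 array A 14 were called, and without array B 29. On the deposited scale the median was -0.05 and none were called, so the rise is relative to the other genes of the array.

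The largest esa1 changes were those of RPS14B, given above, RPS9A and RPL41A. RPS9A, whose protein sits near the entry of the messenger RNA channel, was at 0.99 and 0.92 in esa1 and at -0.07 to 0.29 in WT, a change of 0.96 (SE 0.16, n = 2, adjusted p = 3.6e-05). RPL41A was at 1.28 and 0.48, against -0.59 to 0.59 in WT, with a change of 0.88 (SE 0.31, adjusted p = 0.03). The RPS9A arrays were clear of WT and the RPL41A arrays were not. All 5 stalk genes rose in esa1, by 0.3 (RPP1A) to 0.53 (RPP0). On the deposited scale RPP1A, RPP1B and RPP2B were at -0.13, -0.03 and -0.03 in esa1. The smallest called changes were RPP1A at 0.3, RPL6B at 0.31 and RPL20A at 0.31, each with SE 0.11 or 0.12.

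Chromosome IX carried 5 of the 134 genes, and by limma none of them was called in esa1 (unadjusted p 0.1 for RPS24B and higher for the rest), against 65 of the 129 on other chromosomes. Their changes ran from -0.08 to 0.23 with a median of 0.01, and the median elsewhere was 0.39. Over all genes tested in esa1, the 203 on chromosome IX had a median of -0.41 and the 5317 elsewhere one of 0.01, with 89 of the 203 called lower and 8 higher. Each of the 5 has its paralog on another chromosome, and in esa1 the copy on IX was below its partner in all 5 pairs. RPL16A on IX was at 0.08 and -0.1 in esa1 and RPL16B on XIV changed by 0.61. The difference was -0.64 and -0.61 on the 2 arrays and called at -0.62 (SE 0.15, adjusted p = 0.003). RPL40A, made as a fusion to ubiquitin like its paralog, changed by 0.01 and RPL40B on XI by 0.39, a difference of -0.38 (SE 0.09, adjusted p = 0.0025). RPL2B changed by -0.08 and RPL2A on VI by 0.21, a difference of -0.29 (SE 0.08, adjusted p = 0.0097). But the RPL2 pair also differed in ts2, by -0.22 (SE 0.05), and in gcn5, by -0.33 (SE 0.08). The RPL40 difference was called in hpa2 as well, at -0.39 (SE 0.09, limma adjusted p = 0.049). That of RPL16 was called in none of ts2, gcn5 and hpa2. For RPL34B (-0.03) and RPS24B (-0.06) the difference from the partner on V was not called in esa1. In ts2 the RPL34 difference was called, at -0.27 (SE 0.09), and the RPS24 difference was not. Of the other 52 pairs 4 were called in esa1: RPS14, RPS9, RPL19 and RPL21. In all, 7 of 57 pairs were called, beside 28.6% of genes and pairs together, and 2 with slide runs fitted as a block. The part of the lower level of chromosome IX in these differences was not tested.

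**Figure D5:**
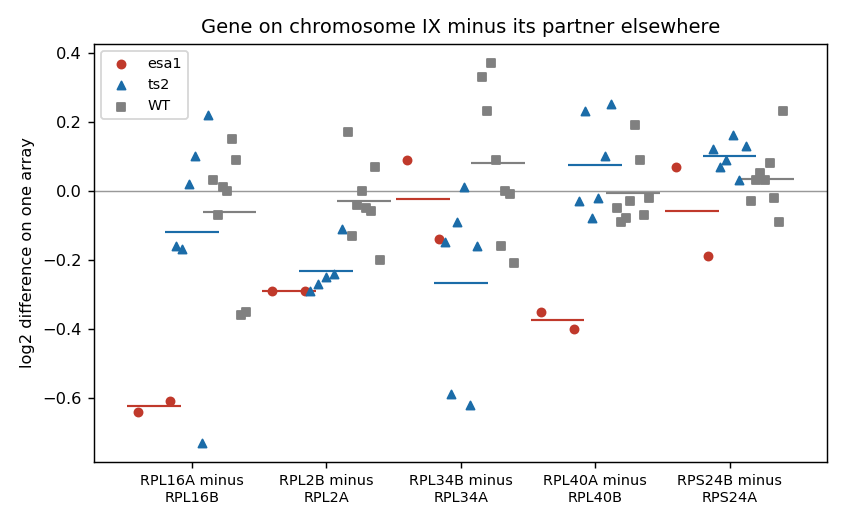
Log2 ratio of the gene on chromosome IX minus that of its paralog elsewhere on each esa1 array (circles), ts2 array (triangles) and WT array (squares), with group means as lines. In esa1 the differences of RPL16, RPL2 and RPL40 are below 0 on both arrays, with means of -0.62, -0.29 and -0.38, and those of RPL34 and RPS24 lie on both sides of 0.

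When esa1 and ts2 were combined, the set was lower than in WT but less so than in ts2. In esa1 ts2 against WT 76 genes fell and 7 rose (28.6% of all genes were called lower and 27.8% higher), with a median of -0.39. Without esa1 ts2 array A 41 were called in all, and without that array 10 pairs, against 12 without array B. RPL9A (arrays at -1.22 and -1.2), RPS28A (-1.26 and -1.12) and RPS31 (-1.05 and -1.24) were lowest, with changes of -1.21, -1.19 and -1.15 (SE 0.17, 0.19 and 0.2). The 7 that rose were RPS14B, RPS27B (0.88 and 0.74, change 0.81, SE 0.23), RPS30A (0.82 and 0.62, change 0.72, SE 0.15), RPL3, RPL36A, RPL8A and RPS27A. Of these, RPL3, RPL36A, RPS27B and RPS30A were also among the 6 not called lower in ts2. RPS27B and RPS30A turned to -0.22 and -0.31 on the deposited scale. Of the 57 pairs 19 differed, led by RPS14 (-1.77, SE 0.16), RPL43 (1.26, SE 0.2) and RPS30 (0.91, SE 0.11), with 56.1% of genes and pairs together called, and 12 pairs with slide runs fitted as a block.

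Set directly against ts2, 106 of 134 genes were higher in esa1 ts2 and 0 were lower, with a median difference of 0.59, while 14.5% of all genes were called higher and 9.57% lower. At an unadjusted p below 0.05, 122 were higher and 0 lower. Both esa1 ts2 arrays were above all 6 ts2 arrays for 104 genes (77.6%), and 19.6% of all genes. RPS3, a small subunit protein at the entry of the messenger RNA channel, had the largest difference, with -0.06 and 0.34 in esa1 ts2 and -2.05 to -0.67 in ts2 (1.43, SE 0.32, adjusted p = 0.0019). RPS11B had the smallest called, with -0.25 and -0.21 in esa1 ts2 and -0.82 to -0.43 in ts2 (0.37, SE 0.11, adjusted p = 0.016). Of the stalk genes RPP0, RPP1A, RPP2A and RPP2B were called higher, by 0.43 to 0.6, and RPP1B was at 0.37 (SE 0.14, adjusted p = 0.059, or 0.049 with the slide as a random block). None of the 57 A minus B differences was called against ts2 by limma, and 2 had an unadjusted p below 0.05 (23.6% of genes and pairs together were called). The largest, RPS29A minus RPS29B, was 0.86 (SE 0.4, adjusted p = 0.13), and slide run 3 alone called 1 pair.

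This comparison was sensitive to the arrays and the scale. Within slide run 3, the only run with both strains, 26 genes were called, and the median was 0.52. With slide runs fitted as a block 49 were called. Leaving out esa1 ts2 array A gave 69 and array B 17. On the deposited scale the median was -0.08 and none were called, and RPP0, RPP1A, RPP2A, RPP2B and RPS11B were at -0.13, -0.23, -0.09, -0.07 and -0.29.

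Departure of the double mutant from the sum of the single changes on the log2 scale was tested as an interaction. With esa1, RPL16A was the 1 gene called, by 0.56 (SE 0.16, adjusted p = 0.039), and 4.92% of all genes were called. The median interaction of the set was 0.21. RPL16A was at -0.41 and -0.31 in esa1 ts2, 0.08 and -0.1 in esa1, and -1.35 to -0.72 in ts2. It lies on chromosome IX, where the genes as a whole had a median interaction of 0.3 and the 5 ribosomal protein genes one of 0.52, against 0.2 for the 129 elsewhere. Its call was lost with WT given its own coefficient (adjusted p = 0.083), with no dye term and with slide runs fitted as a block.

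In gcn5 20 of the genes were called. Gcn5 is the acetyltransferase of SAGA, a coactivator that shares subunits with TFIID. The lower ones were spread over both subunits, 8 of 79 large and 11 of 55 small, beside 9.35% of all genes called lower and 9.15% higher. Every array of gcn5 was below every WT array for 28 genes (20.9%), and 12.8% of all genes. RPL9A was lowest again, at -1.06 and -0.75 in gcn5, against -0.45 to 0.5 in WT (change -0.91, SE 0.17, adjusted p = 0.00041). RPS22A was at -0.76 and -0.67, against -0.22 to 0.33 in WT (change -0.72, SE 0.17, adjusted p = 0.0034). The gcn5 arrays of both genes lay below their WT ranges. RPS0A and RPS0B, which are needed to mature the small subunit, fell least among those called, by 0.41 and 0.37. None of the 5 stalk genes was called in gcn5 by limma, with changes from -0.28 (RPP0) to -0.05 (RPP1B), although RPP0 and RPP1A had unadjusted p-values of 0.043 and 0.03.

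The count in gcn5 depended on the fit. Within slide run 2, where both gcn5 arrays lay, 38 genes were called. With slide runs fitted as a block, and on the deposited scale, none were, and without gcn5 array A none were either, while without array B 12 were. Of the 57 pairs 5 differed (18.3% of genes and pairs together), 4 with A below B, among them RPS22 (-0.69, SE 0.16), RPS7 (-0.51, SE 0.14) and RPL9 (-0.48). RPL2A was above RPL2B (0.33). Without gcn5 array A 2 pairs were called, and without array B also 2.

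In gcn5 ts2 against WT 121 genes fell and 1 rose, with a median of -1.07 (27.7% of all genes lower, 26.4% higher). RPL9A reached -2.25 and -2.39 (change -2.32, SE 0.17), RPS31 -2.24 and -2.22 (change -2.23, SE 0.2) and RPL23A -2.0 and -2.02 (change -2.01, SE 0.16), and in all 3 both arrays were far below WT. RPL8B (change -0.32, SE 0.11) and RPS14A (change -0.38, SE 0.12) had the smallest called falls. Against ts2 the set as a whole was level, with a median difference of -0.07, 9 genes lower and 3 higher, beside 11.4% and 11.9% of all genes. Both shares were lower among the ribosomal protein genes. RPS27B was lower by 0.9 (SE 0.26, arrays at -0.91 and -1.09 in gcn5 ts2, and -1.1 to 0.44 in ts2), RPL28 by 0.67 and RPL10 by 0.59, while RPS8A was higher by 0.56 (SE 0.16, -0.43 and -0.45 in gcn5 ts2, and -1.16 to -0.8 in ts2). RPP0 was the stalk gene called, lower by 0.51. The count of 12 fell to 0 without gcn5 ts2 array A, to 2 without array B, to 7 and 6 without ts2 arrays B and C, and was 6 within slide run 2, where 1 was lower and 5 were higher and the median was 0.06.

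In gcn5 ts2 against WT 21 of 57 pairs were called (36.8%, below the 53.9% of genes and pairs together), led by RPS14 (-1.44, SE 0.16), RPS7 (-1.14, SE 0.14) and RPL9 (-0.89, SE 0.12). Without gcn5 ts2 array B 12 were called, and with slide runs fitted as a block 12. Against ts2, 5 pairs differed (23.1% of genes and pairs together). RPS27A minus RPS27B was 0.99 and 0.69 in gcn5 ts2, higher than in ts2 by 1.14 (SE 0.25, adjusted p = 0.0011). The ts2 arrays were spread widely, with A at 0.54, D at 0.31 and the others between -1.12 and -0.39. RPS8A minus RPS8B was higher by 0.63 (SE 0.16) and RPS7A minus RPS7B lower by 0.58 (SE 0.16). Within slide run 2 alone 2 pairs were called, without gcn5 ts2 array A 3 and without array B 2.

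In elp3, hat1, hpa2 and sas3 none of the genes was called by limma, and few genes of any kind were (0.289, 0.498, 0.164 and 0.163% lower, and 0.163, 0.0738, 0.237 and 0% higher). At an unadjusted p below 0.05, 1 ribosomal protein gene was lower in elp3, and 4, 7 and 1 were higher in hat1, hpa2 and sas3. The medians were 0, 0.16, 0.1 and 0.1, and those of the single arrays ran from -0.12 to 0.28, within the WT range of -0.18 to 0.28. RPL41B was not tested in hat1, where its deposited ratio was below 0 on array A. In hpa2 the pairs RPS26 (A minus B -0.33 and -0.56, change -0.45, SE 0.08, adjusted p = 0.01) and RPL40 (-0.47 and -0.3, change -0.39, SE 0.09, adjusted p = 0.049) differed, beside 0.487% of genes and pairs together. In elp3, hat1 and sas3, with 57, 56 and 57 pairs tested, no pair was called by limma (0.447, 0.566 and 0.162% of genes and pairs together). At an unadjusted p below 0.05 there were 0, 1 and 0 pairs. The RPL41 pair was the 1 not tested in hat1. Both hpa2 calls were lost with WT given its own coefficient and with slide runs fitted as a block, and the RPL40 call also with the slide as a random block (adjusted p = 0.056). The 2 hpa2 arrays lie in slide runs 1 and 4.

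The double mutants of these 4 genes had lower ribosomal protein genes than WT. In elp3 ts2 104 genes fell and 2 rose (19.9% of all genes lower, 19.8% higher), in hat1 ts2 116 and 2 (16.5% and 15%), in hpa2 ts2 110 and 2 (23.4% and 21.8%), and in sas3 ts2 115 and 1 (24.4% and 23.8%). Median changes were -0.69, -0.69, -0.79 and -0.84. The lowest gene was RPS28A in elp3 ts2 (-1.04 and -1.49, change -1.26, SE 0.19), RPS22A in hpa2 ts2 (-1.18 and -1.66, change -1.42, SE 0.17) and RPL9A in sas3 ts2 (-1.8 and -1.52, change -1.66, SE 0.17). In hat1 ts2 it was RPL29, with a change of -2.58 (SE 0.42) that came from 1 array, at -4.11 on array B and -1.05 on array A. Besides RPS14B, the genes that rose were RPL28 in elp3 ts2 (0.45), RPL41B in hat1 ts2 (2.2 and 1.3, change 1.75, SE 0.47, adjusted p = 0.0056) and RPS30A in hpa2 ts2 (0.54). RPL28 was at 0.71 and 0.2 in elp3 ts2, and array B lay within its WT range of -0.42 to 0.51. With slide runs fitted as a block 1 gene was called higher in elp3 ts2 and 1 in hpa2 ts2. On the deposited scale the called genes numbered 0, 2, 3 and 29 in these 4 strains.

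In these strains 13, 10, 14 and 19 of the 57 pairs were called, which is 22.8, 17.5, 24.6 and 33.3% of pairs, below the 39.5, 31.3, 44.9 and 48.1% of genes and pairs together. RPS14 and RPS30 were among the 3 largest called differences in all 4, with RPS14A minus RPS14B at -1.34 (elp3 ts2), -0.83 (hat1 ts2), -1.51 (hpa2 ts2) and -1.5 (sas3 ts2), and RPS30A minus RPS30B at 0.97, 0.85, 1.15 and 0.76. RPL43 completed the 3 in elp3 ts2 (0.76), hpa2 ts2 (0.73) and sas3 ts2 (1.04), and RPL41 did so in hat1 ts2 (-2.42, SE 0.54). Leaving out 1 array of the strain lowered these counts to 7 (elp3 ts2, without array B), 5 (hat1 ts2, without either), 8 (hpa2 ts2, without array B) and 8 (sas3 ts2, without array A). All these comparisons share the WT arrays.

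Against ts2 the same 4 double mutants gave smaller counts, all but 1 upwards. In elp3 ts2 20 genes were higher (5.76% of all genes) and 0 lower (4.31%), in hat1 ts2 9 higher (2.22%) and 1 lower (2.79%), in hpa2 ts2 7 higher (3.08%) and 0 lower (3.93%), and in sas3 ts2 none was called (0.0543 and 0.127%). At an unadjusted p below 0.05 by limma the higher and lower counts were 57 and 0, 57 and 1, 38 and 1, and 4 and 0. RPL23B was the highest in elp3 ts2, at -0.22 and -0.44, against -1.98 to -0.95 in ts2 (1.08, SE 0.24, adjusted p = 0.0051), and RPP1A was the smallest called there (0.45, SE 0.13). RPS24B was the highest in hpa2 ts2, at 0.0 and 0.04, against -1.23 to -0.57 in ts2 (0.83, SE 0.16, adjusted p = 0.0019), and RPL20B the smallest called (0.51, SE 0.15). In hat1 ts2 RPL41B was highest (2.03, SE 0.55, adjusted p = 0.031), but its array B lay within the ts2 range of -1.13 to 1.36.

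These counts were unstable. The elp3 ts2 and hpa2 ts2 arrays share no slide run with ts2, so they can be set against ts2 only across runs, through the WT arrays that every run holds. With slide runs fitted as a block 1 gene was called in each, and 0 in hat1 ts2. Leaving out 1 array gave 1 to 26 genes in elp3 ts2 (1 without its array A, 6 without its array B, 13 and 12 without ts2 arrays A and D), and 1 to 13 in hat1 ts2 (1 without either of its arrays, 5 without ts2 arrays A, D or E). In hpa2 ts2 it gave 1 to 15 (1 without either of its arrays, 4 and 3 without ts2 arrays A and D, 15 without ts2 array B). Among pairs, RPP2A minus RPP2B lay at 0.02 and -0.06 in elp3 ts2 and at 0.19 and 0.07 in hpa2 ts2, and at 0.45 to 0.76 in ts2. The difference from ts2 was -0.61 (SE 0.12, adjusted p = 0.0024) in elp3 ts2 and -0.46 (SE 0.12, adjusted p = 0.014) in hpa2 ts2. In both strains 4 pairs were called against ts2, and RPL20 and RPS24 were among them too (10 and 7.03% of genes and pairs together). The elp3 ts2 and hpa2 ts2 arrays of the same letter lay on the same slide, and hpa2 ts2 array A carries the elp3 strain number. The part of either in the pairs called in both strains was not tested. In hat1 ts2 the RPS14 pair was called (A minus B higher than in ts2 by 0.64, with 4.85% of genes and pairs together), and in sas3 ts2 none was by limma (0.179%), with 4 at an unadjusted p below 0.05.

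For these 4 acetyltransferase genes, and for GCN5, no ribosomal protein gene departed from the sum of the single changes by limma (0.725, 0.993, 0.409, 1.81 and 0% of all genes called for elp3, gcn5, hat1, hpa2 and sas3). At an unadjusted p below 0.05, 26, 6, 8, 14 and 0 did, and with the slide as a random block 1 gene was called for gcn5. Of the pairs, 2 were called for hpa2 (1.85% of genes and pairs together): RPL20A minus RPL20B (-0.71, SE 0.15, adjusted p = 0.015) and RPL40A minus RPL40B (0.65, SE 0.14, adjusted p = 0.015). For elp3, esa1, gcn5, hat1 and sas3 no pair was called by limma (0.718, 4.84, 0.983, 0.404 and 0%), and 5, 5, 6, 2 and 0 had an unadjusted p below 0.05. Neither hpa2 pair was called with slide runs fitted as a block (adjusted p = 0.17 and 0.091).

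Other genes around the ribosome were read from 3 short lists, which were drawn up with earlier results of these data known. In ts2, 8 of 10 factors that act on the translating ribosome fell and 1 rose, with a median of -0.68, beside 33.2% of all genes called lower and 32% higher. ASC1, which sits on the small subunit and is the yeast RACK1 protein, had the lowest change (-1.86, SE 0.09, adjusted p = 1.3e-16), and SSB2, a ribosome-bound Hsp70, fell too (-0.94, SE 0.07). Its near-identical copy SSB1 was called higher (0.84, SE 0.36, adjusted p = 0.043), but its ts2 arrays A to F were at -0.14, 0.88, -0.44, 2.1, -0.06 and 2.68, and its WT arrays at -1.83 to 0.74. So 3 of the 6 ts2 arrays were below 0, the ts2 and WT ranges overlapped, and the highest values were those of arrays D and F. Of 10 chaperones and import factors, most of them dedicated to ribosomal proteins but with the Hsp90 activator AHA1 among them, 8 fell and 0 rose (median -0.63), led by BCP1, which escorts Rpl23 (-1.2, SE 0.07). Of 15 regulators of ribosomal protein genes 3 fell and 2 rose, with a median of 0. TOD6, a repressor of ribosome genes, was lowest (-0.49, SE 0.09) and STB3, which binds promoters of ribosome biogenesis genes, highest (0.44, SE 0.07), while RAP1 (0.02, SE 0.13), FHL1 (-0.09, SE 0.35) and IFH1 (0.1, SE 0.08) were not called.

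In esa1, where the ribosomal protein genes were higher, 5 of the 10 chaperones were lower and 1 was higher, beside 11.9% of all genes lower and 16.9% higher. BCP1 was lowest (-0.88, SE 0.12, adjusted p = 5.4e-06), SQT1, the chaperone of Rpl10, fell by 0.73 (SE 0.14), and AHA1 was the 1 that rose (0.54, SE 0.18). Of the translating ribosome factors 2 rose (SSB2 0.37, ZUO1 0.34) and 0 fell. Among regulators 3 rose, led by HMO1, a high-mobility-group protein found at ribosomal protein promoters (0.6, SE 0.11, adjusted p = 0.00017), and CKA1, a casein kinase 2 subunit, fell (-0.48, SE 0.16). The lists were not split by chromosome. The 203 genes tested on chromosome IX had a median of -0.41 in esa1, with 89 called lower and 8 higher. The part of that chromosome in the changes of the listed genes was not tested. In gcn5, where 9.35% of all genes were lower and 9.15% higher, the regulator DOT6 rose (0.86, SE 0.15) and CRF1, a corepressor of Fhl1, fell (-0.54, SE 0.14). STB3 rose too (0.41, SE 0.12), TMA19 was the factor that fell (-0.64, SE 0.15), and SYO1 was the chaperone that rose (0.34, SE 0.12).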

How the data were processed

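Each of 38 arrays gave a linear ratio of test strain over WT for 7056 spots, as deposited by the authors. Per the series' design text, dye swaps were mode normalized in R and corrected with Bacillus subtilis spikes added per OD600. Whether the deposited ratios precede those steps is not given in the sources used here. Of the spots 5579 carried 1 gene name. Ratios were turned to log2, array medians subtracted (groups of 2 differed by over 0.5 in 7 of 12 cases) and spots of a gene averaged. For WT arrays the dye followed from the other array of the slide or from the letter.

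All arrays entered 1 linear model per gene (limma 3.58.1, R 4.3.3) with 13 mutant coefficients, WT fixed at 0 and a dye term (24 residual and 2.89 prior degrees of freedom), adjusted by Benjamini-Hochberg per comparison at 0.05. Genes needed values on 4 of 6 ts2, 6 of 8 WT and both arrays of other groups. A minus B differences were fitted as further rows. The SE is pooled over groups. Simulated data were used to check the fit.

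Members and lists were chosen with earlier results of these data known. Genes named were the 8 lowest and 4 highest in ts2, the 3 lowest and 3 highest called in gcn5, esa1 and their double mutants, the lowest and highest called elsewhere, all RPP genes, genes with missing values and the largest pairs. RPL28, RPL10, RPL8A, RPL17B, RPS27A, RPL9B, RPL43A, RPL43B, the chromosome IX genes and their partners, RPL19, RPL21, SQT1, SSB2, RAP1, FHL1, IFH1 and the gcn5 and esa1 pairs past the third were added after their values were seen. Alternatives covered centring, dye, filter, WT coefficient, array letter, slide run (runs as a block, or 1 run alone), slide (as a random block) and single arrays. Some genes that the rule picks are not reported here.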

Additional observations from a re-analysis of the deposited data

Results flagged for a closer look

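Single ts2 arrays stood apart in 6 of the named series. Array E did so for RPL3 (1.02, next 0.06), RPP0 (-0.18, next -0.7), RPS28A (-2.79, next -1.78) and RPS23A minus RPS23B (-0.48, next -0.01). Array F did so for RPL41B (1.36, next -0.21) and array C for RPL43A minus RPL43B (0.71, next 1.07). Among WT arrays, H stood apart for RPL29 (-1.97, next -0.09), RPS14A minus RPS14B (0.27, next 0.04) and RPS30A minus RPS30B (0.28, next 0.01), D for RPL41B (-1.96, next -0.58) and A for RPS23B (0.51, next -0.08). The gap exceeded Dixon's 95% critical value in these 11 of 64 series. Chance alone sets apart about 1 in 20 of independent series not picked by their values. Most of these series were picked by their values on the same arrays and some share genes, so that rate cannot be set against the count.

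Departures of the double mutant from the sum of the single changes were called for RPL16A with esa1 (0.56), RPL20A minus RPL20B with hpa2 (-0.71) and RPL40A minus RPL40B with hpa2 (0.65).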

How the results depend on the processing

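In ts2 most members stayed lower under every alternative run, with 115 to 131 (128) called and 114 to 130 (127) of them lower. The count called higher was 1, except for 3 within slide run 3 alone. Leaving out 1 array gave 127 to 130 called. Most other counts depended on the processing, and the cause was not tested unless stated. Counts are genes or pairs called, with the value under the alternative first and the reported one in parentheses. A minus B values do not depend on array medians. Pairs are fitted together with the genes, so on the deposited scale the adjustment and the prior variance they share with the genes both change. The part of each in the lower pair counts was not tested.

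The array letter gives each group the same replicate labels, and in every group of 2 letter A is the Cy5 and B the Cy3 array, so letter and dye go together there. Deviations of same-letter arrays correlated at -0.13 to 0.57 (median 0.12) over 66 pairs of groups, 38 of them over 0.1. As not every one was over 0.1, the main fit did not take the letters to pair the arrays. These correlations cannot tell a pairing from the dye, which was not removed from them. What the arrays of a letter share besides the dye was not tested. With the letter as a replicate block, genes called were 11 (65) in esa1 and 4 (20) in gcn5, and against ts2 2 (20) in elp3 ts2, 51 (106) in esa1 ts2, 1 (12) in gcn5 ts2, 1 (10) in hat1 ts2 and 1 (7) in hpa2 ts2. Pairs with this block were 2 (7) in esa1, 1 (5) in gcn5, 6 (10) in hat1 ts2, 8 (14) in hpa2 ts2, 0 (2) in hpa2, 0 (2) in the hpa2 interaction, and against ts2 2 (4) in elp3 ts2, 0 (1) in hat1 ts2 and 2 (4) in hpa2 ts2. The sas3 and hpa2 medians turned to -0.03 (0.1 in both).

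With the slide run as a block, genes were 12 (65) in esa1, 0 (20) in gcn5, 0 (1) in the esa1 interaction, and against ts2 1 (20) in elp3 ts2, 49 (106) in esa1 ts2, 4 (12) in gcn5 ts2, 0 (10) in hat1 ts2 and 1 (7) in hpa2 ts2. Pairs were 2 (7) in esa1, 3 (5) in gcn5, 12 (19) in esa1 ts2, 12 (21) in gcn5 ts2, 12 (19) in sas3 ts2, 0 (2) in hpa2, 0 (2) in the hpa2 interaction, and against ts2 1 (4) in elp3 ts2, 3 (5) in gcn5 ts2, 0 (1) in hat1 ts2 and 1 (4) in hpa2 ts2. A random block for the slide, chosen after seeing the data like each slide run alone, takes up the 18 slides that hold 2 arrays (correlation within slides 0.22). It gave 1 (2) pairs in hpa2, 3 (1) pairs in hat1 ts2 against ts2 and 1 (0) genes in the gcn5 interaction, and the RPL41 pair in ts2 and RPP1B in esa1 ts2 against ts2 were then called (adjusted p = 0.035 and 0.049), while RPL40 in hpa2 was not (0.056). It left the other counts of called genes and pairs within 1.5 times. Run 1 gave 0 (2) pairs in hpa2. Run 2 gave 38 (20) genes and 8 (5) pairs in gcn5, and 6 (12) genes and 2 (5) pairs in gcn5 ts2 against ts2. Run 3 gave 26 (106) genes and 1 (0) pair in esa1 ts2 against ts2, and 0 (1) genes and 1 (0) pair in the esa1 interaction. Run 4 gave 21 (33) pairs in ts2, 0 (2) in hpa2, and 0 (10) genes and 0 (1) pairs in hat1 ts2 against ts2.

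On the deposited scale, genes were 0 (65) in esa1, 0 (20) in gcn5, 0 (106) in elp3 ts2, 2 (118) in hat1 ts2, 3 (112) in hpa2 ts2, 29 (116) in sas3 ts2, 0 (1) in the esa1 interaction, and against ts2 0 in elp3 ts2 (20), esa1 ts2 (106), gcn5 ts2 (12), hat1 ts2 (10) and hpa2 ts2 (7). Pairs were 12 (33) in ts2, 6 (19) in esa1 ts2, 5 (21) in gcn5 ts2, 1 (13) in elp3 ts2, 1 (10) in hat1 ts2, 2 (14) in hpa2 ts2, 2 (19) in sas3 ts2, and 0 in esa1 (7), gcn5 (5), hpa2 (2) and the hpa2 interaction (2). Against ts2 0 pairs were called in elp3 ts2 (4), gcn5 ts2 (5), hat1 ts2 (1) and hpa2 ts2 (4). Medians turned to -0.05 (0.39) in esa1, 0.05 (-0.14) in gcn5, 0.76 (0.0) in elp3, -0.03 (0.1) in hpa2, -0.08 (0.59) in esa1 ts2 against ts2, and -0.08 (0.3), 0.0 (0.21) and -0.32 (0.1) in the elp3, esa1 and gcn5 interactions. In esa1 RPL20A, RPL6B, RPP1A, RPP1B and RPP2B turned to -0.12, -0.13, -0.13, -0.03 and -0.03, and in esa1 ts2 RPS27B and RPS30A to -0.22 and -0.31. In esa1 ts2 against ts2 RPP0, RPP1A, RPP2A, RPP2B and RPS11B turned to -0.13, -0.23, -0.09, -0.07 and -0.29.

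With WT given its own coefficient, genes were 42 (65) in esa1, 13 (20) in gcn5 and 0 (1) in the esa1 interaction, and pairs 0 (2) in hpa2. With no dye term, genes against ts2 were 12 (20) in elp3 ts2, 7 (12) in gcn5 ts2, 4 (10) in hat1 ts2 and 2 (7) in hpa2 ts2, with 0 (1) in the esa1 interaction, and pairs were 1 (2) in hpa2 and 0 (1) in hat1 ts2 against ts2. Centring on genes outside the list gave 2 (1) pairs in hat1 ts2 against ts2. The difference of large minus small subunit by means in place of medians was 0.09 (0.15) in ts2, 0.05 (0.09) in elp3 ts2, 0.07 (0.15) in esa1 ts2, 0.05 (0.09) in hat1 ts2, 0.07 (0.14) in hpa2 ts2, 0.08 (0.14) in sas3 ts2, -0.03 (-0.05) in elp3 and 0.03 (0.01) in hat1.

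Leaving out 1 array, genes ranged over 14 to 65 in esa1, 0 to 22 in gcn5, 41 to 83 in esa1 ts2, 0 to 1 in hpa2, 17 to 111 in esa1 ts2 against ts2, 1 to 26 in elp3 ts2, 0 to 14 in gcn5 ts2, 1 to 13 in hat1 ts2 and 1 to 15 in hpa2 ts2 against ts2, 0 to 1 in the elp3 interaction and 0 to 2 in the esa1 interaction. Pairs ranged over 27 to 33 in ts2, 1 to 6 in esa1, 2 to 5 in gcn5, 1 to 2 in hpa2, 7 to 14 in elp3 ts2, 10 to 22 in esa1 ts2, 12 to 22 in gcn5 ts2, 5 to 10 in hat1 ts2, 8 to 15 in hpa2 ts2 and 8 to 19 in sas3 ts2. Against ts2 pairs ranged over 1 to 5 in elp3 ts2, 0 to 1 in esa1 ts2, 2 to 5 in gcn5 ts2, 0 to 3 in hat1 ts2 and 1 to 5 in hpa2 ts2, and in the interactions over 0 to 1 (gcn5) and 1 to 3 (hpa2).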
